A study of Mus musculus with 24 samples.

Results

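The 10 genes described here encode the enzymes that hydroxylate and crosslink collagen: the lysyl oxidases Lox, Loxl1, Loxl2, Loxl3 and Loxl4, the lysyl hydroxylases Plod1, Plod2 and Plod3, and the prolyl 4-hydroxylase alpha subunits P4ha1 and P4ha2. They were taken by symbol from the 55291 gene names counted in each library. All 10 were found, and all 10 were among the 16258 genes with enough reads to be tested.

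Collagen chains are modified in the endoplasmic reticulum before they fold. Prolyl 4-hydroxylase, whose catalytic alpha subunit pairs with P4hb, makes the hydroxyproline that keeps the triple helix stable at body temperature, and lysyl hydroxylases make the hydroxylysine from which sugars are hung and the stronger crosslinks are built. Outside the cell, lysyl oxidases oxidise lysine and hydroxylysine side chains to aldehydes that join neighbouring molecules of collagen and elastin, and this crosslinking is a recognised part of the stiffening of fibrotic lung.

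Primary fibroblasts were grown from the lungs of wild type (WT) C57BL/6 mice and of TLR4-/- mice on the same background, aged 4 to 8 weeks, and each group of cells came from a pool of 3 to 4 lungs. TLR4 is the receptor through which extracellular cold-inducible RNA-binding protein (CIRP) is held to act. At passages 3 to 6, after a night in reduced serum medium, cells of both genotypes received phosphate-buffered saline (PBS), recombinant mouse CIRP (rmCIRP) at 1 μg/ml, recombinant mouse TGF-β1 (rmTGF-β1) at 2 ng/ml, or both proteins, and were lysed at 24 hours for total RNA sequencing. This gave 8 conditions of 3 libraries each. As the cells of a genotype were pooled, and no label says that the 3 libraries came from separate pools, p-values here measure only the spread between libraries, which may be technical.

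Between 29853346 and 39664606 reads per library fell on genes. Levels below are normalised read counts, that is reads divided by the library's median-of-ratios size factor, and differences are log2 fold changes with their standard error from edgeR's quasi-likelihood test, called at a Benjamini-Hochberg adjusted p under 0.1 over all genes tested. Tlr4 mRNA was not lower in the libraries labelled TLR4-/-: with PBS it stood at 927, 892 and 891 normalised counts, and at 718, 802 and 758 in WT libraries, so the labels are used here as names only. All 8 fibroblast markers were detected in each condition (Col1a1, Col1a2, Dcn, Lum, Pdgfra, Pdgfrb, Thy1 and Postn), and of the markers of other cells those of macrophages were by far the most abundant. The 14 macrophage markers summed to 93758 to 102165 normalised counts in WT libraries with PBS and to 358889 to 410883 in those labelled TLR4-/-. By contrast, 5 endothelial markers summed to at most 1436 in any library, 4 mesothelial markers to at most 689, 5 epithelial markers to at most 385 and 4 lymphocyte markers to at most 9.97. Library 3 of the labelled TLR4-/- cells with both proteins was the lowest of its group in 9 of the 10 members. Whether it stood apart was not tested, and the results that rest on it are given with and without it.

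RefSeq promoter sequences (GRCm38.p6) were at hand for 5 of the 10 members. Those of the prolyl 4-hydroxylase subunits and of Plod1 and Plod3 are printed because these paralogs parted from each other under rmCIRP or rmTGF-β1. Each run is the 250 bases before the transcription start, 5′ to 3′ on the strand of the gene. Capitals mark a match to ACGTG on either strand (CACGT on the opposite one). ACGTG is a form of the core of elements that hypoxia-inducible factors bind. The other form of that core, GCGTG, was not searched and is not marked.
P4ha1: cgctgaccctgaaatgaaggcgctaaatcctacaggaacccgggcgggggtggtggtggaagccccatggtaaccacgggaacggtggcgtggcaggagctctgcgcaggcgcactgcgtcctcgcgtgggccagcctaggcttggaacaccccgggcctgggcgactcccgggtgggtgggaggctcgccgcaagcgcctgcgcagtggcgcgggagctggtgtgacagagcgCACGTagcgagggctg
P4ha2: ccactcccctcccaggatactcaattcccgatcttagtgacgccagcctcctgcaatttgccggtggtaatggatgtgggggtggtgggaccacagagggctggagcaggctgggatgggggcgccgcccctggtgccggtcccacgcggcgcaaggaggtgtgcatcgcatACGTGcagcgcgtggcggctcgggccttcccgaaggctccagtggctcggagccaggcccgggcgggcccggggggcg
Plod1: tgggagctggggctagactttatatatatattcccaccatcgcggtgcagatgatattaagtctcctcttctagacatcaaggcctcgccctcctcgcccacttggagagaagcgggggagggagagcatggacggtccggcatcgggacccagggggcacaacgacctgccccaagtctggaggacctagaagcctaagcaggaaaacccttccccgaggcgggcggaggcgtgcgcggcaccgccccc
Plod3: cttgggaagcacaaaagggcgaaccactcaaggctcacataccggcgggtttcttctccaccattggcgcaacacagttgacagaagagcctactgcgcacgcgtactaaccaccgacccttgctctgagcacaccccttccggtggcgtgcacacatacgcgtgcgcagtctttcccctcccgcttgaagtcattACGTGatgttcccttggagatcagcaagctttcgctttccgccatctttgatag

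The windows lie at chr10:59323046-59323295 (+ strand) for P4ha1, chr11:54100674-54100923 (+ strand) for P4ha2, chr4:147936777-147937026 (- strand) for Plod1 and chr5:136986769-136987018 (+ strand) for Plod3. The P4ha1 window held CACGT at position -16, the P4ha2 window ACGTG at -78 and the Plod3 window ACGTG at -54, counted back from the start. Plod1 held no match to ACGTG, nor did the Loxl4 window, which was searched but is not printed. This does not show that either window lacks the core, as the form GCGTG stands in the Plod1 window and, as CACGC on the opposite strand, in the Loxl4 window. The P4ha1, P4ha2 and Plod3 windows hold GCGTG as well. Its share over all promoters was not counted. Of 32851 promoters of this length, 16.6% held at least 1 match to ACGTG. The Loxl4 window held the kappaB sequence GGGACTTCCC at -143, a form that NF-kappaB binds, and 5.0% of the promoters held a kappaB match. CAGAC, the short element of SMAD binding sites, was found in Loxl4 at -226 and in Plod1 at -74 (as GTCTG), against 42.2% of promoters. The string TATAAA was searched over the whole window on either strand. It was found in Plod1 at -232 on the opposite strand (as TTTATA) and in 12.4% of promoters. Neither is a count of TATA boxes, as position and strand were not required. The windows were rich in G and C, from 55.6% in Plod3 to 70% in P4ha2 among those printed.

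Per kilobase of exon, Lox was the most abundant member in unstimulated WT cells, at 11848 ± 342 normalised counts per kilobase (SD, n = 3). Loxl2, at 4480.4 ± 158, and Loxl1, at 3895 ± 277, came next on the same scale. P4ha1 (2754 ± 106) was the more abundant of the prolyl 4-hydroxylase subunits, above P4ha2 (904 ± 34.5), and P4ha3, the remaining subunit gene, stood at 462 ± 9.26. Among lysyl hydroxylases, Plod3 (2149 ± 41.1) and Plod2 (1995 ± 102) lay close together, and Plod1 (469.8 ± 9.6) was much lower. Loxl3 was at 1499.5 ± 17.6, and Loxl4 was the least abundant member, at 258 ± 20.1 per kilobase. Every member was well counted: the fewest reads for any of them in any library were the 718 of Loxl4.

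**Figure D1:**
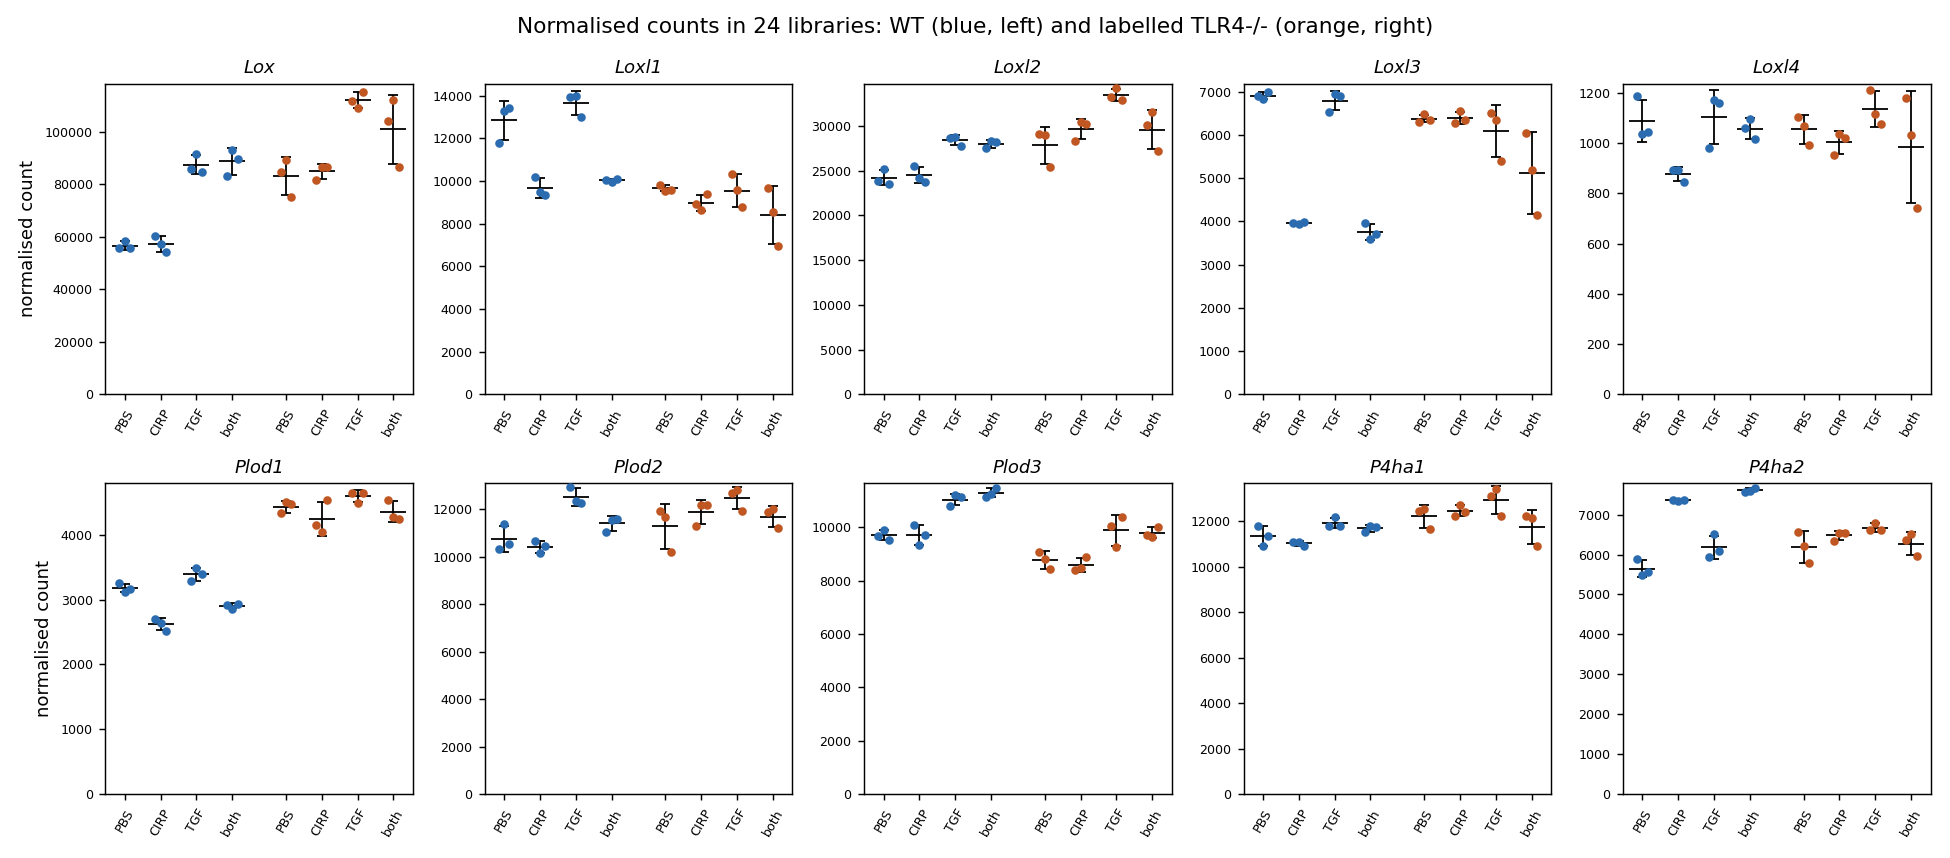
Normalised read count of each member in every library, with 1 panel per gene and its own axis from 0; points are libraries, grouped by genotype and treatment, and bars show the mean and SD of 3 libraries. Lox is higher with rmTGF-β1 in both genotypes, Loxl3 is lower in WT cells with rmCIRP, and Plod1 is higher in all libraries labelled TLR4-/- than in any WT library.

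Treatment of WT cells with rmTGF-β1, the standard inducer of myofibroblast differentiation, raised Lox, Loxl2, Plod2, Plod3 and P4ha2. These were 5 of the 10 members, and 0 fell, while 5.77% of all genes tested rose and 6.65% fell. The treated libraries all lay above the controls in 6 members and all below in 0, beside 14.1% and 15.6% of genes tested. The median log2 fold change of the members was 0.11, against -0.02 over all genes tested. In bulk RNA, more cells of a type and more RNA per cell cannot be told apart. Markers of cell types moved as well. The 8 fibroblast markers summed to 492072 to 509488 normalised counts with rmTGF-β1, above the 440226 to 457008 with PBS, and 3 of the 8 rose while 2 fell. All 14 macrophage markers had estimates below 0, with a median of -0.12, of which 1 was called, and their sums overlapped at 85036 to 97486 with rmTGF-β1 and 93758 to 102165 with PBS. The part of these shifts in the values of the members was not tested.

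Lox made the largest step among the members. Its 3 WT libraries with PBS held 55555, 58493 and 55785 normalised counts and its 3 with rmTGF-β1 held 85846, 91598 and 84749, so that every treated library lay above every control. The difference was 0.62 ± 0.07, adjusted p = 9.2e-06, or 1.54-fold. Loxl2, a lysyl oxidase that also acts on the collagen of basement membranes, went from 23903, 25183 and 23564 to 28696, 28786 and 27824, again without overlap, a difference of 0.23 ± 0.05, adjusted p = 0.00724.

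The other lysyl oxidases showed no such step. Loxl1, the form tied to elastic fibres, differed by 0.08 ± 0.08, adjusted p = 0.596 and a 95% interval of -0.08 to 0.25. The intervals were -0.20 to 0.14 for Loxl3 and -0.20 to 0.23 for Loxl4, so a rise of the size seen for Lox lies outside all 3 intervals. Within the same libraries, Lox stood at 4.71, 4.40 and 4.15 times the Loxl1 reads with PBS and at 6.15, 6.55 and 6.51 times with rmTGF-β1. The summed normalised counts of the 5 lysyl oxidases were 101659 ± 2850.0 with PBS and 137380.0 ± 4566 with rmTGF-β1 (SD, n = 3).

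Among lysyl hydroxylases, Plod2, which acts on the telopeptide lysines, held 10344, 11380.5 and 10540.5 normalised counts with PBS and 12944, 12355 and 12245 with rmTGF-β1. The groups did not overlap, and the difference was 0.21 ± 0.05, adjusted p = 0.0105. Plod3, the form that is also a glycosyltransferase, went from 9689.7, 9905 and 9535 to 10791, 11201 and 11123, a difference of 0.18 ± 0.04, adjusted p = 0.00608. Plod1, which acts on lysines of the helix, differed by 0.09 ± 0.04, adjusted p = 0.179, short of the threshold, and was called in a model of the 6 libraries compared alone (adjusted p = 0.0689).

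P4ha2 was the weakest of the calls, with 5884, 5475 and 5562 normalised counts with PBS and 5948, 6513 and 6077 with rmTGF-β1 (0.13 ± 0.04, adjusted p = 0.0685). It was not called without PBS library 2 (adjusted p = 0.183) or 3 (0.211), nor without rmTGF-β1 library 2 (0.364) or 3 (0.123). P4ha1 differed by 0.07 ± 0.04, with an interval of -0.02 to 0.16. Plod3 shares 11.9% of its exon bases with exons of Znhit1 on the other strand, and the strand setting of the counting is not given in the sources used here; Znhit1 itself differed by 0.04 ± 0.07.

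Added on top of rmCIRP, rmTGF-β1 raised Lox, Loxl2, Plod1 and Plod3. That was 4 of 10 members with 0 lower, beside 10.0% of genes tested that rose and 10.5% that fell. Lox libraries held 60246, 57238 and 54087 normalised counts with rmCIRP alone and 83238, 93209 and 89697 with both proteins, a difference of 0.63 ± 0.07, adjusted p = 2.0e-06. The differences were 0.22 ± 0.04, adjusted p = 6.0e-04 for Plod3, 0.19 ± 0.05, adjusted p = 0.0134 for Loxl2 and 0.15 ± 0.04, adjusted p = 0.013 for Plod1. Loxl4 and Plod2 missed the threshold narrowly, at 0.27 ± 0.11, adjusted p = 0.104 and 0.13 ± 0.05, adjusted p = 0.103, and both were called in all 6 alternative settings that kept every library. Their adjusted p ran from 3.6e-04 to 0.099 for Loxl4 and from 0.00475 to 0.0929 for Plod2 there, of which the replicate block gave 0.0851 and 0.0862. P4ha1 joined them in the model of the 6 libraries compared alone (adjusted p = 0.0345), which made 7 members. The shares of all genes above belong to the main model, which called 4 members, and the share in the smaller model is not given here. The fibroblast markers summed to 397250 to 408498 normalised counts with both proteins and to 341214 to 375566 with rmCIRP, with 3 of the 8 higher and 2 lower, and 1 of 14 macrophage markers rose; their part was not tested.

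**Figure D2:**
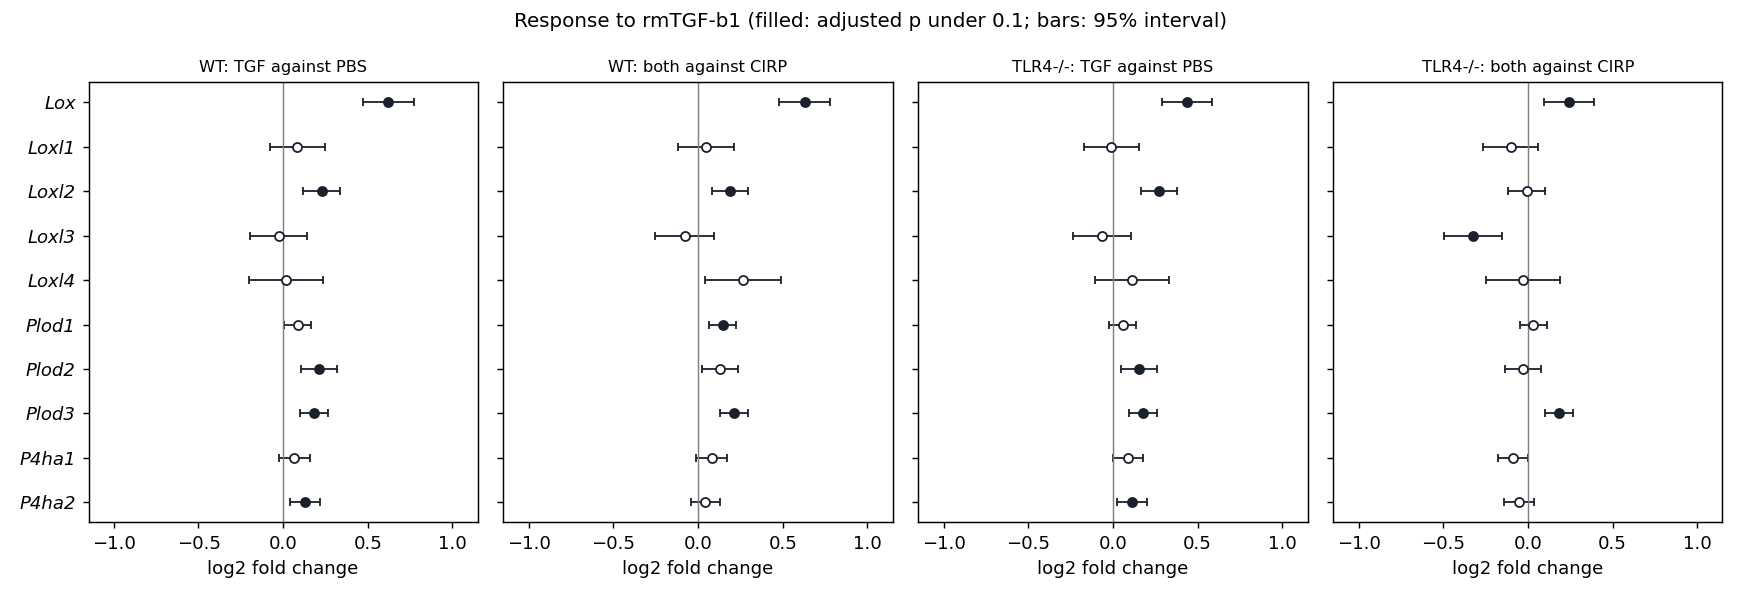
Log2 fold change of each member with rmTGF-β1, without and with rmCIRP, in WT cells and in cells labelled TLR4-/-; points are edgeR estimates, bars are 95% intervals, and filled points have an adjusted p under 0.1. Lox lies at 0.62 and 0.63 in WT cells, while Loxl1 stays near 0 in all 4 panels.

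In WT cells rmCIRP lowered Loxl3, Loxl1, Loxl4 and Plod1 and raised P4ha2. Thus 4 of the 10 members fell and 1 rose, in a comparison where 24.1% of all genes tested fell and 19.8% rose. The treated libraries all lay below the controls in 4 members and all above in 1, beside 26.9% and 23.9% of genes tested. Their median log2 fold change was -0.05, against -0.02 over all genes tested.

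Loxl3, a lysyl oxidase-like enzyme of the same subgroup as Loxl2, changed most. It held 6897, 6824 and 6986 normalised counts with PBS and 3960.2, 3929 and 3997 with rmCIRP, or 0.572 of the control level, and the libraries of the groups lay far apart. The difference was -0.81 ± 0.08, adjusted p = 8.9e-08. Of its exon bases, 11.6% are shared with exons of Htra2 on the opposite strand, and Htra2 differed by -0.12 ± 0.04, adjusted p = 0.0328, much less than Loxl3.

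Loxl1 held 11789, 13302 and 13429.8 normalised counts with PBS and 10205, 9465 and 9360.1 with rmCIRP, with no overlap (-0.41 ± 0.08, adjusted p = 2.4e-04). Loxl4 went from 1186, 1034 and 1045 to 893, 892 and 846, also without overlap (-0.32 ± 0.11, adjusted p = 0.0228). The Loxl4 call was lost without PBS library 1, the highest of its group (adjusted p = 0.139). The remaining lysyl oxidases gave no call. Lox differed by 0.01 ± 0.07 with an interval of -0.14 to 0.16, and Loxl2 by 0.01 ± 0.05 with an interval of -0.10 to 0.12.

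Plod1 fell from 3248, 3119.9 and 3166 normalised counts with PBS to 2694, 2643 and 2515 with rmCIRP (-0.29 ± 0.04, adjusted p = 4.5e-06). The other lysyl hydroxylases gave intervals of -0.16 to 0.05 (Plod2) and -0.09 to 0.08 (Plod3), neither of which reaches the Plod1 estimate. P4ha2 rose from 5884, 5475 and 5562 to 7363, 7345 and 7375, a 1.3-fold difference (0.38 ± 0.04, adjusted p = 3.2e-07) with no overlap. Its paralog P4ha1 differed by -0.05 ± 0.04, with an interval of -0.14 to 0.04.

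Other markers moved in the same comparison. The 8 fibroblast markers summed to 440226 to 457008 normalised counts with PBS and to 341214 to 375566 with rmCIRP, and 4 of the 8 fell while 2 rose. Of the 14 macrophage markers 4 rose and 10 fell, and their sum went from between 93758 to 102165 to between 82037 to 87428. The part of these shifts in the values of the members was not tested.

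In the presence of rmTGF-β1, rmCIRP again lowered Loxl3, Loxl1 and Plod1 and raised P4ha2, and Plod2 was lower as well. Here 21.7% of genes tested fell and 20.5% rose, against 4 and 1 of the 10 members. With both proteins Loxl3 held 3960.2, 3601 and 3717 normalised counts, its lowest mean level though overlapping that of rmCIRP alone, and 6539, 6937 and 6905 with rmTGF-β1 alone (-0.86 ± 0.08, adjusted p = 3.9e-08). For Loxl1 the counts were 10039, 9972 and 10069.8 against 13955, 13979 and 13012 (-0.45 ± 0.08, adjusted p = 1.1e-04). Plod1 stood at 2915, 2857 and 2932 against 3291, 3482 and 3388 (-0.23 ± 0.04, adjusted p = 7.9e-05), and its WT libraries thus fell into 4 levels without overlap, highest with rmTGF-β1 and lowest with rmCIRP.

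P4ha2 reached its highest mean level with both proteins, at 7569.6, 7587 and 7671 normalised counts, and lay 0.30 ± 0.04 above rmTGF-β1 alone (adjusted p = 1.1e-05). Against rmCIRP alone P4ha2 was not called, at 0.04 ± 0.04, adjusted p = 0.561, with an interval of -0.04 to 0.13. Plod2 stood at 11048, 11562 and 11594 with both and 12944, 12355 and 12245 with rmTGF-β1 (-0.14 ± 0.05, adjusted p = 0.0381), a call that was lost without library 1 of either group (adjusted p = 0.127 and 0.149). Loxl4 was not called here, at -0.07 ± 0.11, adjusted p = 0.664. For Lox, with 83238, 93209 and 89697 normalised counts, the interval was -0.13 to 0.17. Of the fibroblast markers 5 fell and 1 rose in this comparison, and of the macrophage markers 7 fell and 4 rose, and their part in these values was not tested.

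Whether the proteins acted other than additively on the log2 scale was tested by their interaction in WT cells, within the model of all 24 libraries. By edgeR 0 of the 10 members and 8 of the 16258 genes tested (0.0492%) passed. At an unadjusted p under 0.05 there were 0 members and 917 genes, and DESeq2 called 0 members and 37 genes. The estimates of the members ran from -0.09 for Plod2 to 0.25 for Loxl4, whose interval was the widest, -0.06 to 0.56. For Lox and P4ha1 the intervals were -0.20 to 0.22 and -0.11 to 0.14.

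**Figure D3:**
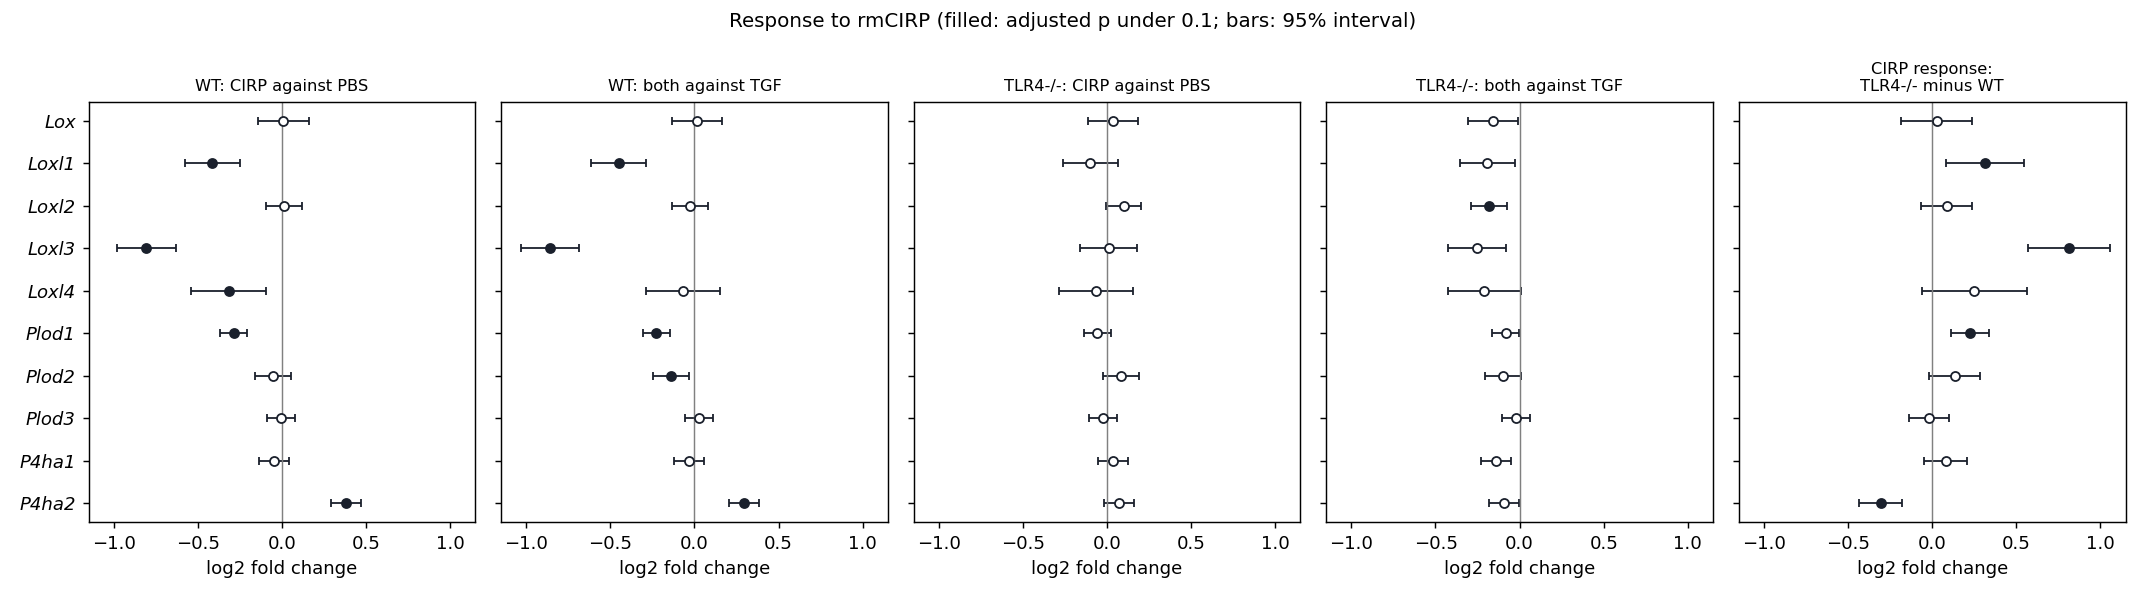
Log2 fold change of each member with rmCIRP, without and with rmTGF-β1, in WT cells and in cells labelled TLR4-/-. The last panel is not a response but a difference, the response to rmCIRP against PBS in labelled TLR4-/- cells minus that in WT cells. Points are edgeR estimates, bars are 95% intervals, and filled points have an adjusted p under 0.1. In WT cells Loxl3 lies at -0.81 and -0.86 and P4ha2 at 0.38 and 0.30, while in cells labelled TLR4-/- 0 of the 10 members pass the threshold against PBS. Of all 16258 genes tested, 0 pass it in that comparison.

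Ratios of 2 members within a library need no scaling between libraries and show how the paralogs parted. They are given as a description, with no test. For each read of P4ha1, WT libraries held 0.5002, 0.503 and 0.491 reads of P4ha2 with PBS, 0.505, 0.535 and 0.517 with rmTGF-β1, 0.664, 0.664 and 0.677 with rmCIRP and 0.658, 0.644 and 0.654 with both. The lowest WT library with rmCIRP was at 0.644, and the highest of all other libraries, of either genotype, was at 0.547. With the TLR4-/- label the ratio was 0.507 ± 0.018 for PBS and 0.52 ± 0.0059 for rmCIRP (SD, n = 3).

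Loxl3 reads per Loxl2 read fell into a ladder in WT cells, with 0.289, 0.271 and 0.296 for PBS, 0.228, 0.241 and 0.248 for rmTGF-β1, 0.155, 0.163 and 0.168 for rmCIRP and 0.144, 0.127 and 0.132 for both. None of these 4 sets of libraries overlapped. Plod2 reads per Plod1 read were 3.39 ± 0.24 in WT cells with PBS and 3.98 ± 0.16 with rmCIRP. Among labelled TLR4-/- cells the means ranged from 2.54 ± 0.24 with PBS to 2.81 ± 0.18 with rmCIRP, and all 12 libraries lay below every WT library.

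**Figure D4:**
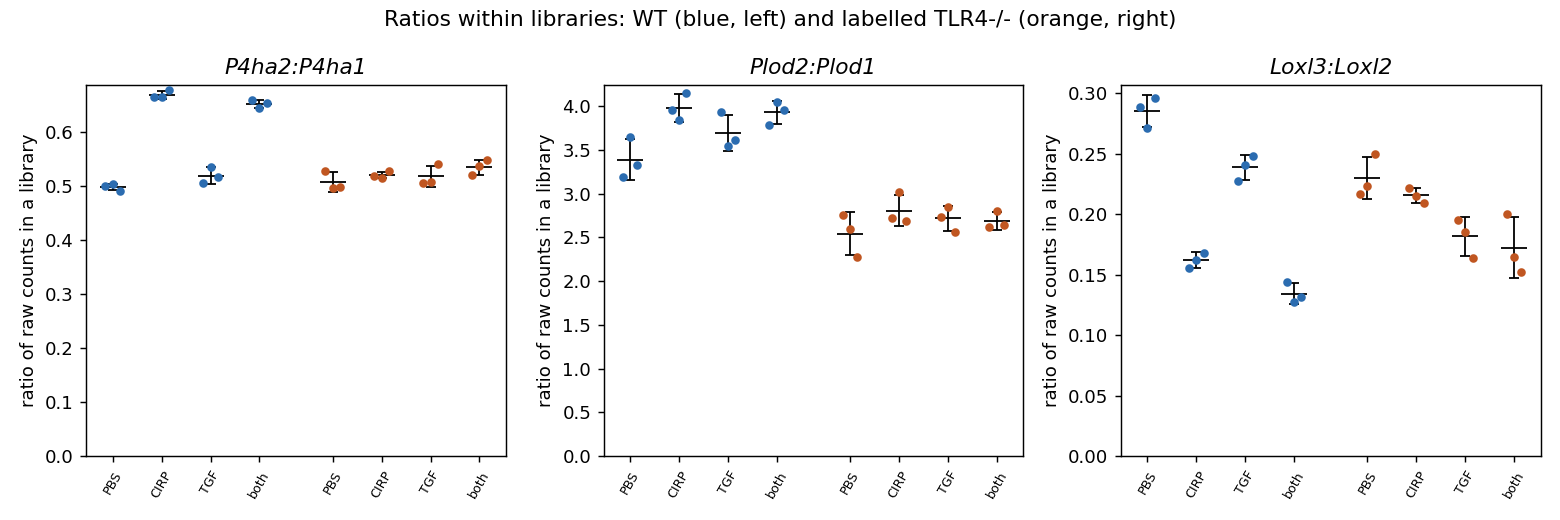
Ratio of raw reads of 2 members within each library, with axes from 0; points are libraries, bars are the mean and SD of 3 libraries, WT on the left and labelled TLR4-/- on the right of each panel. P4ha2:P4ha1 is higher in the 6 WT libraries that received rmCIRP than in all others, and Loxl3:Loxl2 is lowest in the 3 WT libraries with both proteins.

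Before any treatment the genotypes already differed in these enzymes. With PBS, Lox, Plod1, Loxl2, P4ha2 and P4ha1 were higher in cells labelled TLR4-/- and Loxl1 and Plod3 were lower. These 5 higher and 2 lower members of 10 stood beside 23.2% and 24.0% of all genes tested. The pools of cells, their passage and their content of cell types cannot be told apart from the genotype. All 14 macrophage markers were higher in the labelled TLR4-/- libraries, with a median log2 fold change of 2.19. Of the 8 fibroblast markers 2 were higher and 3 lower.

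Lox held 84775, 89379 and 75119.6 normalised counts in labelled TLR4-/- cells with PBS, against 55555, 58493 and 55785 in WT cells (0.55 ± 0.07, adjusted p = 1.6e-06). Without any stimulus its level thus overlapped that of WT cells with rmTGF-β1. Plod1 showed the clearest difference, 4329, 4498 and 4478 against 3248, 3119.9 and 3166 (0.48 ± 0.04, adjusted p = 6.6e-10), and under every treatment each of its 12 labelled TLR4-/- libraries lay above all 12 WT libraries. Loxl1 went the other way, with 9814, 9551 and 9586 against 11789, 13302 and 13429.8 (-0.42 ± 0.08, adjusted p = 1.8e-04).

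Smaller differences were 0.20 ± 0.05, adjusted p = 0.00371 for Loxl2, -0.15 ± 0.04, adjusted p = 0.00452 for Plod3 and 0.13 ± 0.04, adjusted p = 0.0182 for P4ha2. The P4ha2 call was lost without labelled TLR4-/- library 1 (adjusted p = 0.107). P4ha1, at 0.10 ± 0.04, adjusted p = 0.0595, was not called once WT library 2 or 3 or labelled TLR4-/- library 1 or 2 was left out (adjusted p = 0.133 to 0.225). Of the members not called, Loxl3 was called in a model of the 6 libraries compared alone (adjusted p = 0.0269), and Plod2 without WT library 2 (0.0976) or labelled TLR4-/- library 3 (0.0169). Reads of Lox per read of Loxl1 were 8.61 ± 0.76 in labelled TLR4-/- cells and 4.42 ± 0.28 in WT cells.

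In cells labelled TLR4-/-, rmTGF-β1 raised Lox, Loxl2, Plod3, Plod2 and P4ha2, 5 of 10 members with 0 lower, beside 12.1% and 11.7% of genes tested. Lox rose from 84775, 89379 and 75119.6 normalised counts to 111694, 109083 and 115242 (0.44 ± 0.07, adjusted p = 1.7e-04), the highest Lox level in the series by its mean. Loxl2 rose from 29095, 29007 and 25430.1 to 33268, 34206 and 32879.7 (0.27 ± 0.05, adjusted p = 7.6e-04), and Plod3 from 9069, 8812 and 8431 to 10034, 9241 and 10382 (0.18 ± 0.04, adjusted p = 0.00312). In these genes and in P4ha2 the treated libraries lay above every control. That was 4 of the 10 members, with 0 all below, beside 2585 and 2917 of the 16258 genes tested.

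The calls on Plod2 (0.15 ± 0.05, adjusted p = 0.0438) and P4ha2 (0.11 ± 0.04, adjusted p = 0.0684) were less secure. In a model of the 6 libraries compared alone neither was called (adjusted p = 0.12 and 0.156), which left 3 members, and both were lost without PBS library 3 or without rmTGF-β1 library 1 or 2. P4ha2 was lost also without PBS library 2, without rmTGF-β1 library 3 and with no filter on low counts. P4ha1 was called without rmTGF-β1 library 3 (adjusted p = 0.0838). Of the fibroblast markers 2 rose and 2 fell, and of the macrophage markers 0 rose and 1 fell.

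The 2 genotypes' responses to rmTGF-β1 were set against each other directly. By edgeR 0 of 10 members and 14 of all genes tested (0.0861%) passed, with 0 members and 1686 genes at an unadjusted p under 0.05, and DESeq2 called 0 members and 163 genes. Lox, at -0.18 ± 0.10 for labelled TLR4-/- minus WT, had an interval of -0.40 to 0.03. It was called only with no filter on low counts (adjusted p = 0.00963).

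With rmCIRP, 0 of the 10 members passed the threshold in cells labelled TLR4-/-, as did 0 of the genes tested (0%). At an unadjusted p under 0.05 there were 0 members and 1136 genes, and DESeq2 called 0 members and 33 genes. Loxl3 held 6307, 6476 and 6356 normalised counts with PBS and 6286, 6553 and 6344 with rmCIRP, with an interval of -0.16 to 0.18 for the log2 fold change. For P4ha2, at 6569.6, 6206 and 5789 and 6345, 6546 and 6540.2, the interval was -0.02 to 0.16, and for Plod1 it was -0.14 to 0.02. Each of these intervals leaves out the WT estimate of the same gene. For Loxl1 the interval was -0.26 to 0.06 and for Loxl4 -0.29 to 0.15, the widest. They too leave out the WT estimates, -0.41 and -0.32, though for Loxl4 the difference between genotypes was not called.

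The responses to rmCIRP differed between genotypes for 4 of the 10 members, 3 with a higher value in labelled TLR4-/- than in WT cells and 1 with a lower one, beside 17.1% and 14.3% of genes tested. They were Loxl3, at 0.82 ± 0.12, adjusted p = 2.0e-05 for labelled TLR4-/- minus WT, Plod1, at 0.23 ± 0.05, adjusted p = 0.00367, and Loxl1, at 0.31 ± 0.11, adjusted p = 0.0426, and in the other direction P4ha2, at -0.31 ± 0.06, adjusted p = 6.7e-04. The call on Loxl1 was lost without WT PBS library 2 (adjusted p = 0.106) or WT rmCIRP library 3 (0.12). Loxl4, which fell in WT cells, had a difference of 0.25 ± 0.15, adjusted p = 0.248, and was called with no filter on low counts (adjusted p = 0.0698) and in a model of the 12 libraries compared alone (0.031). Markers of cell types also responded differently in this contrast. Of the 14 macrophage markers 7 were higher and 4 lower. Of the 8 fibroblast markers 4 were higher and 1 lower, with a median of 0.26. The part of these markers in the values of the members was not tested.

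When rmCIRP was added to rmTGF-β1 in cells labelled TLR4-/-, all 10 estimates were below 0. Of the 16258 genes tested, 8054 had estimates above 0. By edgeR only Loxl2 passed the threshold, beside 1.13% of genes tested that fell and 1.56% that rose. At an unadjusted p under 0.05 there were 7 members and 2912 genes (17.9%). Loxl2 held 30102, 31540.3 and 27194 normalised counts with both proteins and 33268, 34206 and 32879.7 with rmTGF-β1 alone (-0.18 ± 0.05, adjusted p = 0.0929). Library 3 of the cells with both was the lowest of its group in 9 of the 10 members, among them Lox (103972, 112128 and 86417), Loxl1 (9656, 8562 and 6944) and Loxl3 (6039, 5193 and 4140.0). Without that library 0 members and 1 of all genes were called, and Loxl2 stood at -0.12, adjusted p = 0.486. Leaving out rmTGF-β1 library 1 or 2 also ended the Loxl2 call (adjusted p = 0.385 and 0.272), as did a model of the 6 libraries compared alone (0.679). Other settings added calls on members, all of them lower, while all genes called, 437 in the main model, moved as well. With the replicate number as a block Loxl3 (adjusted p = 0.0926) and P4ha1 (0.0702) were called too, as they were by DESeq2 (0.0708 and 0.0523), which made 3 members. The block called 810 of all genes and DESeq2 902. With no filter on low counts 6 members and 1580 genes were called. Without library 1 of the cells with both proteins there were 6 members and 2674 genes, and without library 2 of that group 3 and 738. Without rmTGF-β1 library 3 there were 4 members and 2141 genes. In this comparison 1 of 8 fibroblast markers was higher and 0 of the other cell type markers were called, though all 5 endothelial estimates were above 0 (median 0.44).

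Against rmCIRP alone, the labelled TLR4-/- cells with both proteins had more Lox (0.24 ± 0.07, adjusted p = 0.016) and Plod3 (0.18 ± 0.04, adjusted p = 0.00199) and less Loxl3 (-0.32 ± 0.08, adjusted p = 0.00633). These 2 higher and 1 lower members stood beside 17.2% and 15.6% of genes tested. Without library 3 the values were 0.34, adjusted p = 3.0e-04 for Lox, 0.17, adjusted p = 0.00852 for Plod3 and -0.19, adjusted p = 0.0321 for Loxl3. Without library 2 of the same group Lox was not called (adjusted p = 0.118), and in a model of the 6 libraries compared alone Plod3 was the only member called. P4ha1 was called lower with the replicate number as a block (adjusted p = 0.0975) and without library 1 (0.0677) or 2 (0.0975) of the cells with both, and Loxl1 without library 1 (0.0325). Markers of other cells moved in the same comparison. The endothelial markers, 4 of 5 called higher with a median of 0.51, summed to 768 to 1436 normalised counts with both proteins and to 681 to 699.9 with rmCIRP. Of the mesothelial markers 3 of 4 were lower, at sums of 422 to 475 against 586 to 648, of the macrophage markers 3 of 14 were higher and 1 lower, and of the fibroblast markers 3 of 8 were lower. Their part in the values of the members was not tested.

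Other genes of procollagen modification, folding and processing were followed as a list of 24, of which 23 were tested. With rmTGF-β1 in WT cells 9 rose and 0 fell, beside 5.77% and 6.65% of genes tested, and the median log2 fold change was 0.10. Those that rose ran from Pcolce2, an enhancer of the procollagen C-proteinase, at 0.35 ± 0.09, adjusted p = 0.0202, to the prolyl 3-hydroxylase partner Crtap, at 0.15 ± 0.04, adjusted p = 0.0142, and included the C-proteinase Bmp1, at 0.21 ± 0.04, adjusted p = 7.3e-04. The third alpha subunit, P4ha3, was at 0.37 ± 0.15, adjusted p = 0.14. The beta subunit P4hb was at 0.06 ± 0.04, and the collagen chaperone Serpinh1 at 0.02 ± 0.05.

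With rmCIRP in WT cells 2 genes of that list rose and 10 fell, beside 19.8% and 24.1% of genes tested, with a median of -0.03. The rises were Adamts14, a procollagen N-proteinase, at 1.03 ± 0.10, adjusted p = 5.4e-08, and Colgalt1, which adds galactose to hydroxylysine, at 0.19 ± 0.04, adjusted p = 2.1e-04. The largest falls were in Adamts3, another N-proteinase (-0.85 ± 0.27, adjusted p = 0.0156), and in P4ha3 (-0.60 ± 0.15, adjusted p = 0.00377). P4ha3 thus fell where P4ha2 rose and P4ha1 gave no call. Serpinh1 fell by a small amount (-0.17 ± 0.05, adjusted p = 0.0112), and P4hb (0.03 ± 0.04) and Bmp1 (-0.00 ± 0.04) were not called. With PBS, 13 of the 23 were lower and 2 higher in cells labelled TLR4-/- than in WT cells, beside 24.0% and 23.2% of genes tested, with P4ha3 among the former at -0.73 ± 0.15, adjusted p = 6.2e-04.

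The fibrillar collagens, the substrates of these enzymes, were a list of 11, all tested. With rmTGF-β1 in WT cells 5 rose and 1 fell, beside 5.77% and 6.65% of genes tested, from Col5a3 at 0.66 ± 0.16, adjusted p = 0.0114 and Col11a1 at 0.64 ± 0.09, adjusted p = 7.2e-05 to Col24a1 at -0.97 ± 0.22, adjusted p = 0.0078. Col1a1 rose less than Lox, at 0.22 ± 0.08, adjusted p = 0.0929, and Col3a1 was not called, at -0.08 ± 0.12. With rmCIRP 3 rose and 6 fell, beside 19.8% and 24.1% of genes tested, led by Col5a3 (1.47 ± 0.16, adjusted p = 2.4e-07) and Col27a1 (0.68 ± 0.12, adjusted p = 1.5e-04) on 1 side and by Col5a1 (-0.42 ± 0.07, adjusted p = 4.5e-05) and Col1a2 (-0.38 ± 0.07, adjusted p = 2.3e-04) on the other. Col1a1, at -0.37 ± 0.08, adjusted p = 8.2e-04, and Col3a1, at -0.35 ± 0.12, adjusted p = 0.025, fell with rmCIRP as Loxl1, Loxl3 and Plod1 did. In cells labelled TLR4-/- with rmCIRP 0 of the 11 collagens, 0 of the 23 genes above and 0 of 20 hypoxia-response genes were called. In that comparison 0 of all 16258 genes tested were called, so these counts are not particular to the lists.

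Across the 24 libraries, the members did not vary as a single block. Pearson correlations of log2(normalised count + 1) between pairs of members ran from -0.77 for P4ha2 and Loxl3 to 0.94 for Lox and Loxl2. These libraries share their conditions and pools of cells, so the values are a description. Out of 12311 genes averaging 50 normalised counts or more, those most like Lox were Ldlrad4, an inhibitor of TGF-β signalling (r = 0.9528), Plekhg3 (0.9525) and Sorcs2 (0.947), and Sorcs2 was also the most like Loxl2 (0.928). Loxl1 was most like the smooth muscle gene Cnn1 (0.961) and the actin crosslinker Actn4 (0.952). For Loxl3 they were Ccn5 (0.981) and Slc44a2 (0.978), and for Plod1 Man1c1 (0.986) and Bcar3 (0.984).

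P4ha2 was most like Setdb2 (r = 0.926), Apol9a (0.922) and Cd40 (0.914), the last a receptor of the TNF family. Its paralog P4ha1 was most like Zdhhc2 (0.890), App (0.878) and Vps53 (0.875). Plod2 was most like the collagen-binding integrin Itga11 (0.857), Adamts12 (0.824) and the fibrillar collagen Col11a1 (0.816). Plod3 was most like the protease Pcsk5 (0.965), and Loxl4 most like Dpysl3 (0.881).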

How the data were processed

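Total RNA libraries (TruSeq Stranded) of fibroblasts, 24 in all, were sequenced on a NextSeq 550. After quality control with FastQC, the authors aligned reads by STAR2 (GENCODE mouse annotation). They deposited the ht-seq counts of each library, which are raw and keyed by gene symbol. The submitters' notes name the build NCBIM37, and the strand option is not given in the sources used here. Multiply mapping and ambiguous reads were not counted on genes. The 5 tally lines of each file, 14.5% to 16.1% of its total, were left out.

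Groups came from the sample labels. With edgeR 4.0.16 in R 4.3.3, genes were kept by filterByExpr (16258 of 34285 with a count), scaled by TMM and fitted in 1 model of 8 condition means with glmQLFit. Then 12 contrasts were tested with glmQLFTest, with Benjamini-Hochberg adjustment over all genes tested and a threshold of 0.1, as in the study's own false discovery limit. Standard errors are the log2 fold change divided by the root of F. Size factors are from DESeq2 1.42.0 and serve the levels. Exon lengths and overlaps are from GENCODE M21, whose symbols match 53292 of 55291 names. The alternatives were DESeq2, RLE scaling, no filter, a mean count of at least 10, a replicate block, a model of the compared libraries alone, and each library left out in turn. The test script was tested on simulated data.

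All 10 members are named. From the lists, genes past the threshold with the largest and smallest change, up to 4 a list, are named, and always P4ha3, P4hb, Serpinh1, Colgalt1, Bmp1, Col1a1 and Col3a1. The members and lists were chosen with earlier results of these data known.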

Additional observations from a re-analysis of the deposited data

Results flagged for a closer look

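The response to rmCIRP against PBS differed between cells labelled TLR4-/- and WT cells, by edgeR's test of the difference itself, for 4 of the 10 members, 3 higher and 1 lower, beside 17.1% and 14.3% of all genes tested. For Loxl3 the labelled TLR4-/- response minus the WT response was 0.82 on the log2 scale, for Loxl1 0.31, for Plod1 0.23 and for P4ha2 -0.31. In WT cells, where Loxl3, Loxl1 and Plod1 fell and P4ha2 rose, the libraries with and without rmCIRP did not overlap. In cells labelled TLR4-/- they overlapped for Loxl3, Plod1 and P4ha2. For Loxl1 the libraries with rmCIRP, at 8897, 8646 and 9387 normalised counts, all lay below those with PBS, though the gene was not called. Of the 10 members 1 lay all below and 0 all above, beside 1286 and 944 of the 16258 genes tested. Tlr4 mRNA was not lower in the labelled TLR4-/- libraries, and their macrophage markers were higher. The genotype thus cannot be told apart from the other differences between the pools of cells. No sample of a group of 3 was tested for standing apart, as the groups were too small for such a test.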

How the results depend on the processing

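Of the 39 calls on members, those in the report kept their direction in all settings run. With every library kept, 228 of 234 repeats also kept the call and 6 lost it, and with 1 library left out 232 of 258 kept it and 26 lost it. Of repeats on members not called, 28 with every library kept and 17 with 1 left out passed the threshold. The fewest reads of a member in a library were 718, and the part of depth in these changes was not tested.

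Counts of calls moved by more than 1.5 times as follows. In the model of the compared libraries alone, 7 members were called for both proteins against rmCIRP in WT cells, 125 genes for the WT interaction, 3 members for rmTGF-β1, 29 genes for rmCIRP, 0 members and 0 genes for both against rmTGF-β1, and 1 member and 2710 genes for both against rmCIRP, the last 4 in labelled TLR4-/- cells. In the main model both against rmCIRP in WT cells gave 4 members and 3329 genes. For rmTGF-β1 in labelled TLR4-/- cells the main model gave 5 members and 3884 genes. With DESeq2 there were 37 genes for the interaction, 33 for rmCIRP in labelled TLR4-/- cells, 3 members and 902 genes for both against rmTGF-β1 there, and 163 genes for the difference between genotypes in the rmTGF-β1 response. With no filter these were 198 genes, 149 genes, 6 members and 1580 genes, and 563 genes with 1 member, Lox. A mean count of at least 10 gave 23 genes for that last difference. The cause was not tested.

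Replicate numbers are shared between conditions, and no label says whether they pair the libraries. The mean correlation of same-numbered libraries was 0.012, over 84 pairs from -0.117 to 0.369, and 12 of 24 libraries correlated best with their own number. Whether the numbers pair the libraries was not tested. With the number as a replicate block, 1 gene was called for rmCIRP in labelled TLR4-/- cells, 3 members and 810 genes for both against rmTGF-β1 there, and 22 genes for the difference in the rmTGF-β1 response. The block lost no member's call and added those on Loxl4 and Plod2 for both against rmCIRP in WT cells and, in labelled TLR4-/- cells, on Loxl3 and P4ha1 for both against rmTGF-β1 and P4ha1 for both against rmCIRP, with adjusted p = 0.0702 to 0.0975.

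With 1 library left out, all genes called ranged from 1029 to 1690 for rmTGF-β1 in WT cells, 2 to 7 for the interaction, 0 to 119 for the difference in the rmTGF-β1 response and, in labelled TLR4-/- cells, 2517 to 3783 for rmTGF-β1 (3 to 5 members), 0 to 9 for rmCIRP and 0 to 2674 for both against rmTGF-β1 (0 to 6 members). For both against rmCIRP in labelled TLR4-/- cells there were 3 to 5 members and 3802 to 5985 genes.

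Signs turned only among values that were not called. Plod3 with rmCIRP in WT cells was 0.0059 with no filter, 0.012 at a mean count of at least 10 and 0.013 with the compared libraries alone. The Lox interaction was -0.0026 with no filter and -0.0045 with the compared libraries alone, and the difference in the rmTGF-β1 response was -0.017 for P4ha1 with no filter and 0.000195 for Plod3 with the compared libraries alone. With 1 library left out, the log2 values of such members spanned 0. These were between genotypes with PBS Loxl4 -0.083 to 0.038 and with rmCIRP in labelled TLR4-/- cells Lox -0.037 to 0.092, Loxl3 -0.017 to 0.0196, P4ha1 -0.0049 to 0.052. They were with both proteins against rmCIRP in labelled TLR4-/- cells Loxl1 -0.21 to 0.018, Loxl2 -0.058 to 0.051, Loxl4 -0.18 to 0.14, Plod2 -0.056 to 0.0026 and with both against rmTGF-β1 in labelled TLR4-/- cells Plod3 -0.065 to 0.018. The ranges were with rmTGF-β1 in labelled TLR4-/- cells Loxl1 -0.0696 to 0.049, Loxl3 -0.12 to 0.018 and for the interaction in WT cells Lox -0.037 to 0.047, Loxl1 -0.071 to 0.015, P4ha1 -0.022 to 0.039. Others were with rmCIRP in WT cells Lox -0.033 to 0.062, Loxl2 -0.024 to 0.048, Plod3 -0.038 to 0.031 and with both against rmTGF-β1 in WT cells Lox -0.022 to 0.064. Further ranges were with rmTGF-β1 in WT cells Loxl4 -0.029 to 0.10 and for the difference between genotypes in the rmCIRP response Lox -0.058 to 0.086, Plod3 -0.064 to 0.014. The last were for the difference between genotypes in the rmTGF-β1 response Loxl2 -0.032 to 0.077, Loxl3 -0.10 to 0.049, P4ha1 -0.027 to 0.062, P4ha2 -0.073 to 0.029, Plod3 -0.044 to 0.0498.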

Other observations

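The 20 genes of the hypoxia-response list, several of which are known targets of the same factors as P4ha1, P4ha2, Plod2 and Lox, split under rmCIRP in WT cells: 8 rose and 1 fell, beside 19.8% and 24.1% of all genes tested, with a median log2 fold change of 0.02 against -0.02 over all genes. The largest rises were in Ndrg1 (1.01 ± 0.19, adjusted p = 2.1e-04) and in the oxygen sensor Egln3 (0.97 ± 0.08, adjusted p = 9.6e-10), and the fall was in the carbonic anhydrase Car9 (-0.57 ± 0.14, adjusted p = 0.00258). With rmTGF-β1, where 5.77% of genes tested rose and 6.65% fell, 1 of the 20 rose, the growth factor Vegfa (0.32 ± 0.10, adjusted p = 0.0486), and 2 fell, Adm (-1.37 ± 0.13, adjusted p = 1.1e-06) and Egln3 (-0.23 ± 0.08, adjusted p = 0.08). Of the members, P4ha2 rose with rmCIRP, while P4ha1, Plod2 and Lox gave no call there.

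The reads of each family were also summed over its paralogs. The 3 lysyl hydroxylases held 23643 ± 660.5 normalised counts in WT cells with PBS, 22734 ± 650.3 with rmCIRP and 26939.8 ± 159 with rmTGF-β1 (SD, n = 3). P4ha1 and P4ha2 together held 16969 ± 643 with PBS and 18377 ± 101 with rmCIRP. The 5 lysyl oxidases, most of whose reads were those of Lox, held 101659 ± 2850.0 in WT cells given PBS, 137380.0 ± 4566 in those given rmTGF-β1, 96183 ± 4385 in those given rmCIRP and 128020.0 ± 9384 in cells labelled TLR4-/- with PBS.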
